A study of Mus musculus with 12 samples.

Results

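*Pramel7*, *Pramel6*, *Pramel4* and *Pramel5* are 4 mouse genes of the PRAME family, and they were taken by symbol from a deposited expression table of 50978 rows. RNA had been sequenced from 3 lines of E14 embryonic stem cells (ESCs), all grown in serum with LIF, the cytokine that holds these cells in self-renewal. Parental ESCs carried no insert. ESC + H/F-PRAMEL7WT carried an HA- and FLAG-tagged copy of *Pramel7*, and ESC + H/F-PRAMEL7ΔN carried a tagged copy that lacked the start of the protein, 50 amino acids according to the sample labels (the study's text gives a smaller number). In both derived lines the insert had been placed with Cas9 at the *Rosa26* locus, a widely used site for transgenes on chromosome 6, behind the strong and generally active CAG promoter. Each derived line was grown from a single cell, so an effect of the insert and a property of the clone cannot be told apart. Each line had 2 libraries in the deposited table, from separate culture dishes, while the study's methods describe triplicates. The p-values measure the spread between dishes of a line, not between clones. CHD4 ChIP and input samples of the same lines were not analysed here.

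PRAME family proteins are built from leucine-rich repeats, and in mouse the family has grown into a large set of genes, many of them in tandem arrays and active in germ cells, oocytes or early embryos. Several members act as substrate receptors of ubiquitin ligases built on the scaffold protein CUL2: short boxes near the start of the protein bind CUL2 and the adaptor elongin C, and the rest binds the protein to be degraded. PRAMEL7 is found in the inner cell mass of the blastocyst and is known for the degradation of UHRF1, the protein that brings the maintenance methyltransferase DNMT1 to replicated DNA. Together with its neighbour PRAMEL6 it has been linked to the ground state of pluripotency.

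The deposited values were RPKM, read numbers scaled to gene length and library size, and the length used turned out to be that of the whole gene span. They were therefore converted to CPM, the reads-per-million scale over all reads on genes, and to whole reads. A library held between 18247313 and 19847810 reads on genes, so that 3 reads, the limit that a count of 0 allows, corresponded to between 0.151 and 0.165 CPM; such limits and the counting intervals below cover counting error only. The ESC markers were above 1 CPM in all lines for 10 of 10 genes, with summed levels between 4939 and 5592 CPM. The study's methods describe culture of ESCs on gelatin with no feeder cells. Of 7 fibroblast markers, *Thy1* and *Col1a1* passed the same filter and *Dcn* and *Lum* were at 0 in every library. The summed level of the 7 ranged from 41.9 to 55.7 CPM over the parental libraries, from 21.1 to 22.4 CPM with PRAMEL7WT and from 38.8 to 43.7 CPM with PRAMEL7ΔN. *Thy1* alone made up most of this sum in every library, so the sum mainly followed that gene and not the list as a whole. Primitive endoderm markers summed to at most 3.57 CPM and trophectoderm markers to at most 12.9 CPM. In these bulk samples, fewer cells that express a gene and less RNA per cell cannot be told apart.

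*Pramel7* (ENSMUSG00000025839.3) lies on the minus strand of chromosome 2, from 87489087 to 87497093 in build GRCm38 (mm10), and *Pramel6* (ENSMUSG00000025838.12) lies beside it on the plus strand, from 87506565 to 87510872. *Pramel4* (ENSMUSG00000073724.12, plus strand, from 144059126 to 144069327) and *Pramel5* (ENSMUSG00000036749.15, minus strand, from 144270633 to 144280488) lie in the family's array on chromosome 4. The first 150 coding bases of *Pramel7*, all within 1 exon, encode the 50 amino acids that PRAMEL7ΔN lacks by its label. They are shown, with the first 150 coding bases of the other genes, because this stretch is what separates the inserts of the derived lines; all were read from GENCODE vM21 transcripts. *Pramel7* is in lower case throughout, and in the other genes capitals mark bases that did not match *Pramel7* in a global alignment.

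Pramel7, chr2:87492269-87492418, minus strand: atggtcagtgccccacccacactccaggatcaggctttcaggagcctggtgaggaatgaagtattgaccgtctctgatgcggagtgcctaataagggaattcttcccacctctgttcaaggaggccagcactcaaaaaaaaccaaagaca
Pramel6, chr2:87508458-87508607, plus strand: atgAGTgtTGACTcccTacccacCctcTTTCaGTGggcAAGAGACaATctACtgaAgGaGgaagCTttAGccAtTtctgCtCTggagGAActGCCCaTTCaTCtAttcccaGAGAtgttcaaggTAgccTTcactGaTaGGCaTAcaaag
Pramel4, chr4:144065755-144065904, plus strand: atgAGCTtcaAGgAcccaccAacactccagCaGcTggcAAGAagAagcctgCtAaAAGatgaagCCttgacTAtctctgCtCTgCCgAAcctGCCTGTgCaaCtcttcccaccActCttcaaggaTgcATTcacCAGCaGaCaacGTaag
Pramel5, chr4:144273855-144274004, minus strand: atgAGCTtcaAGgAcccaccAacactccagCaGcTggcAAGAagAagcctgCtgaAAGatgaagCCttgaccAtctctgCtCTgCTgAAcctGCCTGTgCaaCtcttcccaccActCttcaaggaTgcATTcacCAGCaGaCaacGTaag

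*Pramel6*, the closest neighbour on the chromosome, was not the closest in this stretch. It differed from *Pramel7* at 68 of its 150 bases, against 54 for *Pramel4* and 52 for *Pramel5*. Over the whole coding sequence the 3 genes were about equally far from *Pramel7*, with 54.9% identity for *Pramel6*, 54.9% for *Pramel4* and 54.3% for *Pramel5*. *Pramel4* and *Pramel5* were near copies of each other, at 89.9% over the coding sequence and 98% over the first 150 bases. The coding sequences had similar lengths, with 479 codons in *Pramel7*, 485 in *Pramel6* and 500 in *Pramel4* and *Pramel5*. In *Pramel7* the 150 bases make up 10.4% of the coding sequence, so by its label the insert of ESC + H/F-PRAMEL7ΔN offered that much less coding sequence to which a read could be assigned.

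Reads had been 100 bases long, and stretches of that length were compared between genes to see which members could share reads. None of the 1762 stretches along the *Pramel7* transcript and none of the 1682 along that of *Pramel6* occurred in a transcript of another gene. The nearest stretch of *Pramel6* to *Pramel7* differed at 29 bases, and that of *Pramel4* or *Pramel5* at 30. The 2 family genes nearest to *Pramel7* were *Pramef17* and *Gm13128*, both on chromosome 4, with at least 9 mismatches in every stretch and a median of 21. *Pramel4* differed from the others in that 2004 of its 2300 stretches, or 87.1%, were also found letter for letter in *Gm13102* or *Pramel5*; for *Pramel5* this held for 83 of 2048. How reads that match several genes were counted is not given in the sources used here.

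**Figure D1:**
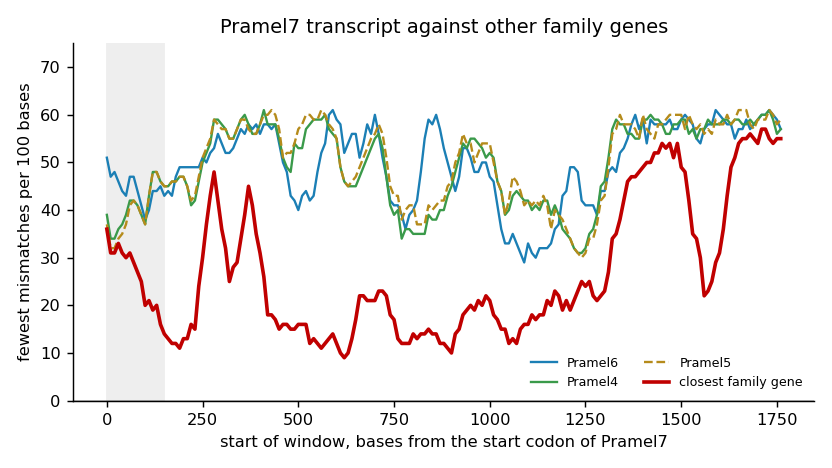
Fewest mismatches per 100 bases between the *Pramel7* transcript and the other members, and the closest of all PRAME family genes, against the start of the 100-base window. Positions count from the first base of the transcript, not from the start codon named on the axis. The grey band marks the first 150 bases of the transcript rather than of the coding sequence. *Pramel6*, *Pramel4* and *Pramel5* stayed at 29 or more mismatches, while the closest family gene came down to 9.

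*Pramel7* was nearly silent in parental ESCs and high in both lines with an insert, and its level was higher in the line with the deletion mutant than in the line with the wild-type protein. It had 5 and 4 reads in the parental libraries, 1011 and 840 with PRAMEL7WT, and 7920 and 8158 with PRAMEL7ΔN. The corresponding levels were 0.258 and 0.217 CPM, 51.2 and 46.2 CPM, and 397.7 and 430.9 CPM. The lines did not overlap, and within each line the libraries lay close together: the means were 0.237 ± 0.029 CPM, 48.7 ± 3.49 CPM and 414.3 ± 23.5 CPM (SD, n = 2). Reads of the insert and of the *Pramel7* gene on chromosome 2 were counted together. The reads show that *Pramel7* was high in the 4 libraries labelled as carrying an insert and not in the parental ones. They do not tell the inserts of the derived lines apart, since no value here covers the deleted stretch on its own.

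On the log2(CPM + 1) scale, *Pramel7* was 5.33 ± 0.11 (SE) higher in ESC + H/F-PRAMEL7WT than in parental ESCs (adjusted p = 1.43e-08 by limma) and 8.39 ± 0.11 higher in ESC + H/F-PRAMEL7ΔN (adjusted p = 1.88e-10). Of the 12914 genes tested, 8.71% were called higher in ESC + H/F-PRAMEL7WT and 6.25% in ESC + H/F-PRAMEL7ΔN, at an adjusted p below 0.05. *Pramel7* was the only one of the 4 members above the filter of 1 CPM in at least 2 libraries, which it passed through the lines that carried the insert. Because 1 CPM is added before the logarithm and the parental level lay below that, these differences are smaller than the ratios of the reads, which were 205 in ESC + H/F-PRAMEL7WT (95% counting interval 108 to 449) and 1738 in ESC + H/F-PRAMEL7ΔN (916 to 3802). The width of these intervals came from the 9 reads that both parental libraries held together.

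The difference between the derived lines did not depend on the parental reads. On the log2 scale, ESC + H/F-PRAMEL7WT minus ESC + H/F-PRAMEL7ΔN was -3.06 ± 0.11 (SE) for *Pramel7* (adjusted p = 6.12e-07 by limma), in a comparison that called 9.44% of the tested genes lower and 10.9% higher. The reads were 8.47 times as many in ESC + H/F-PRAMEL7ΔN (counting interval 8.08 to 8.90). As a share of all reads on genes, *Pramel7* took 0.00509% and 0.0046% in ESC + H/F-PRAMEL7WT, against 0.0401% and 0.0431% in ESC + H/F-PRAMEL7ΔN. The wild-type and the mutant protein were thus compared in lines that differed not only in the deletion but also in the amount of *Pramel7* RNA.

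**Figure D2:**
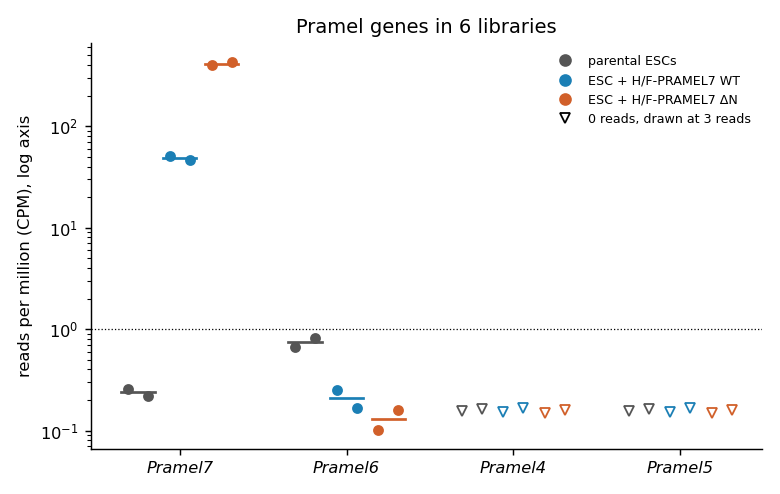
Level in CPM (log axis) of the 4 *Pramel* genes in each library; points are libraries, bars are line means, open triangles mark 0 reads drawn at the level of 3 reads, and the dotted line is the 1 CPM filter. *Pramel7* rose in steps from 0.217 to 430.9 CPM across the lines, *Pramel6* stayed below 1 CPM and was highest in the parental libraries, and *Pramel4* and *Pramel5* had no read.

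Set against the other tested genes per kilobase of exon, *Pramel7* lay near the bottom in parental ESCs and near the top in ESC + H/F-PRAMEL7ΔN. It passed the filter only through the derived lines, so its low place in parental ESCs largely follows from the filter. With 0.121 and 0.102 CPM per kb it ranked 12807th and 12843rd of 12914 genes in the parental libraries. With 24 and 21.7 CPM per kb it ranked 2289th and 2542nd in ESC + H/F-PRAMEL7WT, and with 186.4 and 201.9 CPM per kb it ranked 231st and 211th in ESC + H/F-PRAMEL7ΔN. The median gene lay between 4.92 and 5.38 CPM per kb in all libraries, so the level in ESC + H/F-PRAMEL7WT was above the median gene (percentiles 82.3 and 80.3) and that in ESC + H/F-PRAMEL7ΔN was above nearly all of them (98.2 and 98.4).

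The same scale places *Pramel7* beside the RNAs of its partners. *Cul2*, the scaffold of the ligase, had between 19.9 and 27.3 CPM per kb over the 6 libraries. *Pramel7* had 1.12 and 1.01 times the level of *Cul2* in ESC + H/F-PRAMEL7WT and 8.39 and 7.75 times in ESC + H/F-PRAMEL7ΔN, against 0.00442 and 0.00511 times in parental ESCs. *Eloc*, which encodes elongin C, stood at 0.532 and 0.513 for the same ratio in ESC + H/F-PRAMEL7WT and at 4.19 and 4.3 in ESC + H/F-PRAMEL7ΔN. Against *Uhrf1*, one of the more abundant RNAs of these cells, the ratio was 0.144 and 0.129 in ESC + H/F-PRAMEL7WT and 1.10 and 1.21 in ESC + H/F-PRAMEL7ΔN. These ratios use the 2134 exon bases of the annotated *Pramel7* gene, whose coding sequence has 1437 bases. The length of the insert's own transcript is not given in the sources used here, and a shorter one would raise the ratios. On the annotated length, the level of *Pramel7* was close to that of *Cul2* RNA in the wild-type line and of *Uhrf1* RNA in the mutant line. These are RNA levels, and protein was not measured in these libraries.

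**Figure D3:**
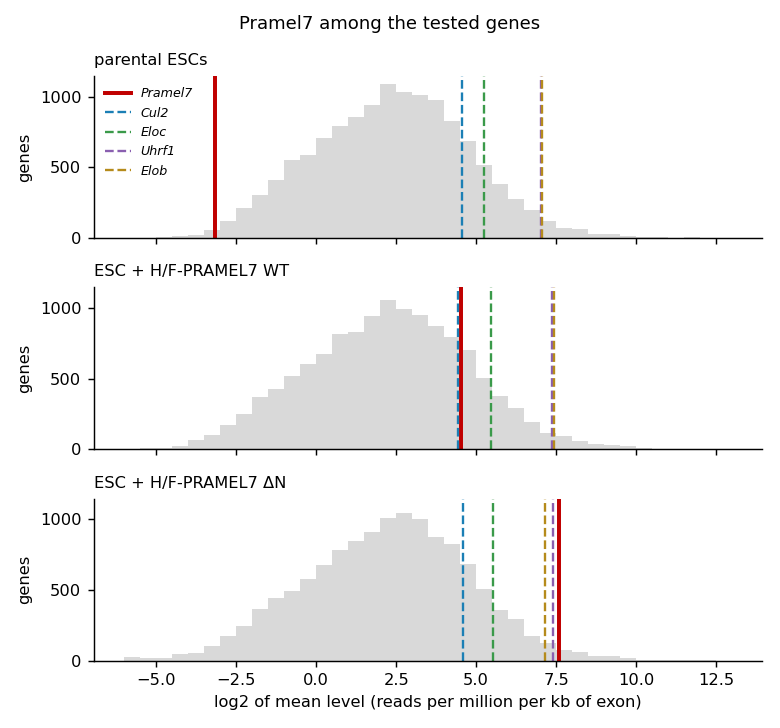
Histograms of the log2 of the mean level per kilobase of exon (CPM per kb) over the 12914 tested genes in each line, with vertical lines for *Pramel7* (solid) and for *Cul2*, *Eloc*, *Uhrf1* and *Elob* (dashed). *Pramel7*, which passed the filter only through the derived lines, lay below nearly all tested genes in parental ESCs. With the exon length of the annotated gene, it lay beside *Cul2* in ESC + H/F-PRAMEL7WT and to the right of *Uhrf1* in ESC + H/F-PRAMEL7ΔN.

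*Pramel6*, whose product is known to act in the same pathway as PRAMEL7, did not follow *Pramel7*. It had 13 and 15 reads in the parental libraries, 5 and 3 with PRAMEL7WT, and 2 and 3 with PRAMEL7ΔN. The parental libraries were the highest and did not overlap with those of either derived line, while the derived lines overlapped with each other. In CPM, the line means were 0.742 ± 0.101, 0.209 ± 0.062 and 0.129 ± 0.041 (SD, n = 2), so that *Pramel6* was under the 1 CPM filter everywhere and was not part of the main test. Its reads in ESC + H/F-PRAMEL7WT were 0.285 times those in parental ESCs (counting interval 0.112 to 0.642), and in ESC + H/F-PRAMEL7ΔN 0.174 times (0.0524 to 0.456). With no filter, the difference did not pass after adjustment over all genes, with adjusted p = 0.202 for ESC + H/F-PRAMEL7WT and 0.167 for ESC + H/F-PRAMEL7ΔN by limma, and 0.0778 and 0.0542 by voom on the whole reads. Between the derived lines the ratio was 1.64 with an interval of 0.473 to 6.37, which does not settle a direction. In parental ESCs, the order of the 2 neighbours was the reverse of that in the derived lines, with 0.356 CPM per kb of exon for *Pramel6* and 0.111 for *Pramel7*.

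*Pramel4* and *Pramel5* had 0 reads in each of the 6 libraries, which allows a level of up to 0.151 to 0.165 CPM per library. For *Pramel4*, most of whose sequence is shared with *Gm13102*, the value also rests on how shared reads were counted; *Gm13102* itself had 0 reads in all libraries. No increase with the *Pramel7* insert was detectable at this depth for any of the other 3 members. The surroundings of the endogenous genes were quiet as well. Within 500 kb of *Pramel7* and *Pramel6*, 68 of the 74 other genes, 56 of which carry olfactory receptor names, had no read at all, and none had more than 5 reads in a library. Around *Pramel4*, 30 of 42 genes had no read, and *Pramef12* was the only gene above the filter; around *Pramel5*, *Pramef12* and *Gm13127* were above it.

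The wider PRAME family was described from a list of 56 names, of which 43 had a row in the converted table. Of these, 29 were at 0 reads in all libraries, 3 had 1 to 3 reads in total, 6 had more but stayed under the filter, and 5 were tested: *Pramel7*, *Pramef8*, *Pramel1*, *Pramef12* and *Lrrc14*. The insert changed what share of the family's reads was *Pramel7*. That share was 0.235% and 0.233% in parental ESCs, 36.4% and 34.8% with PRAMEL7WT, and 79.6% and 80.7% with PRAMEL7ΔN. The other family genes together held 109.7 and 92.9 CPM in parental ESCs, 89.5 and 86.7 CPM with PRAMEL7WT, and 102 and 102.8 CPM with PRAMEL7ΔN, with the 2 lowest sums in ESC + H/F-PRAMEL7WT.

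*Pramef8* (ENSMUSG00000046862.14, chromosome 4, from 143412426 to 143421091, plus strand) showed the largest fall of the tested family genes on the log2(CPM + 1) scale. In reads, its ratio of ESC + H/F-PRAMEL7WT to parental ESCs was 0.390 (counting interval 0.351 to 0.433). That of *Pramel1* was 0.356 (0.235 to 0.529), so the order of these falls depends on the scale. *Pramef8* had 742 and 519 reads in parental ESCs, 268 and 225 with PRAMEL7WT, and 427 and 449 with PRAMEL7ΔN, and the lines did not overlap. Its level was 33.2 ± 7.17 CPM, 13 ± 0.834 CPM and 22.6 ± 1.61 CPM (SD, n = 2). It fell by 1.28 ± 0.15 (log2, SE) in ESC + H/F-PRAMEL7WT (adjusted p = 0.00116 by limma, with 16.3% of the tested genes called lower) and by 0.52 ± 0.15 in ESC + H/F-PRAMEL7ΔN (adjusted p = 0.0400, with 13.6% called lower). The difference of ESC + H/F-PRAMEL7WT from ESC + H/F-PRAMEL7ΔN was -0.75 ± 0.15 (adjusted p = 0.00903), and it missed the threshold without either library of ESC + H/F-PRAMEL7WT or replicate 2 of ESC + H/F-PRAMEL7ΔN (-0.81, -0.69 and -0.68, adjusted p = 0.0572, 0.0910 and 0.0945). The fall in ESC + H/F-PRAMEL7ΔN did not pass under 10 of 16 alternative settings, among them the omission of parental replicate 1, where it was -0.31 (adjusted p = 0.104).

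*Pramel1*, which lies next to *Pramef8* (from 143394428 to 143400160, plus strand), was expressed at a much lower level and was lowest in the same line. It had 53 and 45 reads in parental ESCs, 23 and 12 with PRAMEL7WT, and 44 and 34 with PRAMEL7ΔN. It fell by 0.92 ± 0.19 (log2, SE) in ESC + H/F-PRAMEL7WT (adjusted p = 0.00984 by limma). Its difference from ESC + H/F-PRAMEL7ΔN was -0.66 ± 0.19 (adjusted p = 0.0400), and the difference of that line from parental ESCs was -0.26 ± 0.19 (adjusted p = 0.391). Without replicate 2 of ESC + H/F-PRAMEL7WT, which held 12 reads, the first value was -0.73 (adjusted p = 0.0958) and the second -0.47 (adjusted p = 0.273); the second also missed the threshold without any one of the other 3 libraries of the derived lines (adjusted p between 0.0688 and 0.190).

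*Pramef12* and *Lrrc14* did not share this pattern. *Pramef12* (from 144391674 to 144408464 on chromosome 4, minus strand) was the family gene with the most reads in parental ESCs, with 981 and 838, against 1156 and 979 in ESC + H/F-PRAMEL7WT and 1268 and 1168 in ESC + H/F-PRAMEL7ΔN. It rose by 0.38 ± 0.10 (log2, SE) in ESC + H/F-PRAMEL7ΔN (adjusted p = 0.0267 by limma), while its difference in ESC + H/F-PRAMEL7WT was 0.22 ± 0.10 (adjusted p = 0.127) and that between the derived lines -0.16 ± 0.10 (adjusted p = 0.299). The rise in ESC + H/F-PRAMEL7ΔN missed the threshold without replicate 1 (0.36, adjusted p = 0.163) or replicate 2 (0.40, adjusted p = 0.114) of that line. A transcript annotated antisense to it, *Pramef12os*, had 1 to 10 reads per library, and because the library kit did not mark strand such reads cannot be assigned to either gene with certainty. *Lrrc14*, a distant relative on chromosome 15, had between 269 and 339 reads in every library, with differences of 0.10 ± 0.14 and -0.09 ± 0.14 from parental ESCs (adjusted p = 0.644 and 0.713). Of the 5 tested family genes, 1 rose and 2 fell in ESC + H/F-PRAMEL7WT, where 8.71% of all tested genes were called higher and 16.3% lower, and 2 rose and 1 fell in ESC + H/F-PRAMEL7ΔN, with 6.25% and 13.6%. *Pramel7*, which the derived lines carry as the insert, is among the genes that rose in both. The family median, with *Pramel7* among the 5, was 0.10 and -0.09, beside -0.08 and -0.06 over all tested genes. The other values were -1.28, -0.92, 0.10 and 0.22 in ESC + H/F-PRAMEL7WT. In ESC + H/F-PRAMEL7ΔN they were -0.52, -0.26, -0.09 and 0.38. The positive sign of the first median thus rests on *Pramel7* itself.

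Among the family genes under the filter, the 2 nearest in sequence to *Pramel7* had at most 9 reads in every library. *Gm13128* had 9 and 7 reads in parental ESCs, 7 and 8 with PRAMEL7WT, and 0 and 0 with PRAMEL7ΔN, the line with the most *Pramel7* RNA. Against the 16 parental reads, the 0 reads of ESC + H/F-PRAMEL7ΔN have a counting interval for the ratio of 0 to 0.252. By voom on the whole reads with no filter its adjusted p was 0.0106, and by limma with no filter 0.225. *Pramef17* had 5 and 3 reads, 7 and 4 reads, and 0 and 2 reads in the same order of lines. Its ratio to parental ESCs was 1.37 with PRAMEL7WT (counting interval 0.503 to 3.93) and 0.243 with PRAMEL7ΔN (0.0252 to 1.22), so that neither settles a direction. *Prame*, the gene after which the family is named, had 3 and 12 reads in parental ESCs, 0 and 0 with PRAMEL7WT, and 1 and 0 with PRAMEL7ΔN. Most of its parental reads came from 1 library, and no adjusted p with no filter was under 0.05 for it. *Pramel3* had at most 2 reads in any library.

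**Figure D4:**
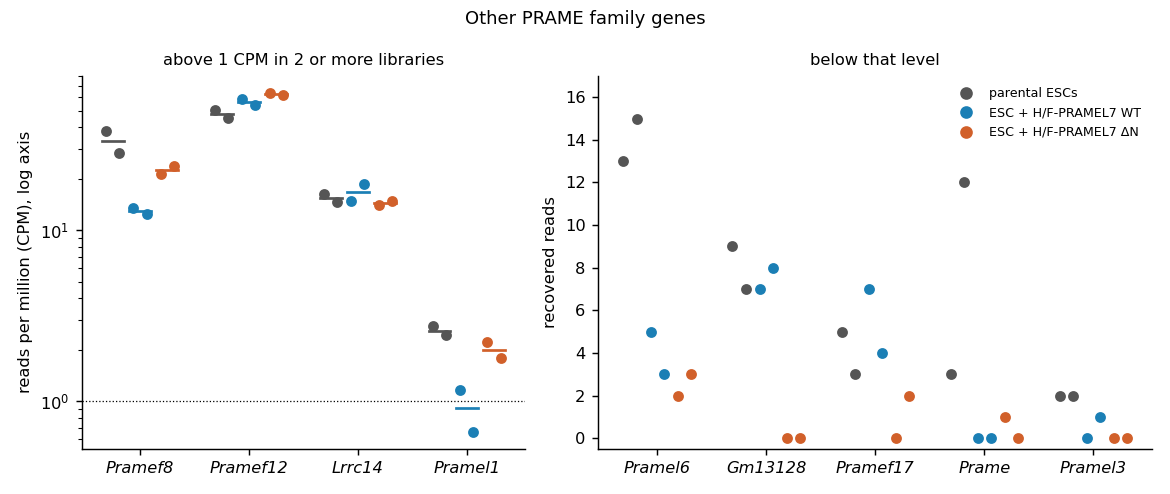
Other PRAME family genes in each library: on the left the 4 tested genes besides *Pramel7*, in CPM (log axis, bars are line means, dotted line at 1 CPM), on the right recovered reads of 5 genes under the filter (linear axis). *Pramef8* and *Pramel1* were lowest in ESC + H/F-PRAMEL7WT, and *Gm13128* had 0 reads in both libraries of ESC + H/F-PRAMEL7ΔN.

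The insertion site offers a further comparison, since the insert is transcribed from chromosome 6. *Gt(ROSA)26Sor*, the non-coding transcript of the *Rosa26* locus (from 113067428 to 113077333, minus strand), had 45 and 16 reads in parental ESCs, 23 and 24 with PRAMEL7WT, and 4 and 8 with PRAMEL7ΔN. It fell by 0.93 ± 0.26 (log2, SE) in ESC + H/F-PRAMEL7ΔN (adjusted p = 0.0349 by limma, not passed under 9 of 15 alternatives). Without the parental library with 45 reads the value was -0.52 (adjusted p = 0.107), and without either library of ESC + H/F-PRAMEL7ΔN it was -0.81 and -1.05 (adjusted p = 0.204 and 0.105). Its end overlaps that of *Thumpd3* on the other strand, and the reads of both there cannot be told apart. The flanking genes went the other way: *Thumpd3* rose by 0.42 ± 0.12 (adjusted p = 0.0361, not passed under 9 of 16 alternatives) and *Setd5*, which encodes a SET domain protein, by 0.37 ± 0.08 (adjusted p = 0.0113, not passed under 3 of 16) in ESC + H/F-PRAMEL7ΔN. Both rises missed the threshold without either library of that line, at 0.54 and 0.30 for *Thumpd3* (adjusted p = 0.0667 and 0.254) and 0.32 and 0.41 for *Setd5* (0.110 and 0.0529), and that of *Thumpd3* also without parental replicate 2 (0.30, adjusted p = 0.0636). In ESC + H/F-PRAMEL7WT, *Setd5* was at -0.27 ± 0.08 (adjusted p = 0.0361, not passed under 10 of 16 alternatives) and *Thumpd3* at -0.26 ± 0.12 (adjusted p = 0.133). Between the derived lines, the difference of ESC + H/F-PRAMEL7WT from ESC + H/F-PRAMEL7ΔN was -0.68 ± 0.12 for *Thumpd3* (adjusted p = 0.00439, but 0.0653 and 0.0657 without replicate 2 of the one or the other line) and -0.63 ± 0.08 for *Setd5* (adjusted p = 0.000779).

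These directions were not limited to the 2 flanking genes. The 603 tested genes of chromosome 6 had a median difference from parental ESCs of -0.26 (log2) in ESC + H/F-PRAMEL7WT and 0.25 in ESC + H/F-PRAMEL7ΔN, and the 78 between 105 and 120 Mb, around the insertion site, of -0.12 and 0.29; this interval was chosen after values were seen. Between the derived lines the median of chromosome 6 was -0.39, beside -3.06 for *Pramel7*. Chromosome 11, which holds neither the insertion site nor a member, had medians of -0.36 and -0.33 over 1102 genes, so a shift of a whole chromosome was not particular to chromosome 6. The chromosomes that hold the members' own genes did not shift in this way, with medians of -0.05 and -0.04 for chromosome 2 and -0.03 and -0.04 for chromosome 4, close to those of all tested genes. The part of the chromosome 6 shift in the level of the insert was not tested.

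The ligase partners and the known upstream and target genes were read from 2 further lists. Of 16 genes of CUL2 ligases, all tested, 3 fell and none rose in ESC + H/F-PRAMEL7WT, and 1 rose and 1 fell in ESC + H/F-PRAMEL7ΔN, with medians of -0.12 and 0.08. Over all tested genes, 16.3% were called lower and 8.71% higher in the first comparison and 13.6% and 6.25% in the second, so the list's counts were near or below the background. The genes that fell in ESC + H/F-PRAMEL7WT encode other substrate receptors: *Appbp2* at -0.55 ± 0.11, *Zyg11b* at -0.46 ± 0.10 and *Klhdc10* at -0.31 ± 0.09 (log2, SE; adjusted p = 0.00908, 0.0133 and 0.0292 by limma). *Appbp2* lies on chromosome 11, whose median in that line was -0.36. Each of these falls missed the threshold without either library of ESC + H/F-PRAMEL7WT (adjusted p between 0.0627 and 0.221), and that of *Klhdc10* under 8 of 16 alternatives. In ESC + H/F-PRAMEL7ΔN, *Zyg11b* fell by 0.34 ± 0.10 (adjusted p = 0.0466, not passed under 11 of 16 alternatives) and *Vhl*, the receptor for hypoxia-inducible factors, rose by 0.55 ± 0.12 (adjusted p = 0.0132, but 0.0745 and 0.105 without either library of that line). *Zyg11b* missed the threshold without parental replicate 1 (adjusted p = 0.0700) or either library of ESC + H/F-PRAMEL7ΔN (0.210 and 0.167). *Vhl* and *Klhdc10* lie on chromosome 6, and both were lower in ESC + H/F-PRAMEL7WT than in ESC + H/F-PRAMEL7ΔN (-0.67 ± 0.12 and -0.55 ± 0.09, adjusted p = 0.00547 and 0.00265). Without replicate 2 of ESC + H/F-PRAMEL7WT these adjusted p were 0.0746 and 0.0557, and without replicate 2 of ESC + H/F-PRAMEL7ΔN that of *Vhl* was 0.0701. *Cul2* itself had between 83.8 and 115.3 CPM, the extremes being the 2 parental libraries, and its differences were -0.12 ± 0.14 and 0.04 ± 0.14 (adjusted p = 0.577 and 0.865).

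*Uhrf1*, whose protein PRAMEL7 is known to target, had more RNA in both derived lines, with 531 and 573.4 CPM in parental ESCs, 708.9 and 716.4 CPM with PRAMEL7WT, and 721.1 and 708.6 CPM with PRAMEL7ΔN. The derived lines were close together and above both parental libraries. The rise was 0.37 ± 0.08 (log2, SE) in each (adjusted p = 0.0115 and 0.0118 by limma), and the difference between the derived lines was -0.00 ± 0.08 (adjusted p = 0.974). The study reported no significant change of *Uhrf1* RNA in ESC + H/F-PRAMEL7WT. Its calls also required a log2 fold change beyond 0.58, which this rise did not reach. With either library of the derived line left out, the rise was 0.36 to 0.39 and missed the threshold (adjusted p between 0.0730 and 0.105). Of the receptors that carry the LIF signal to STAT3, *Lifr* fell by 0.60 ± 0.09 in ESC + H/F-PRAMEL7WT and by 0.33 ± 0.09 in ESC + H/F-PRAMEL7ΔN (adjusted p = 0.00264 and 0.0321), and *Il6st*, which encodes the shared subunit gp130, by 0.52 ± 0.08 and 0.46 ± 0.08 (adjusted p = 0.00294 and 0.00485). The fall of *Lifr* in ESC + H/F-PRAMEL7ΔN did not pass under 9 of 16 alternatives, among them the omission of either library of that line (-0.31 and -0.35, adjusted p = 0.176 and 0.132). *Il6st* missed the threshold without replicate 2 of ESC + H/F-PRAMEL7WT (adjusted p = 0.0510) and, in the other line, without its replicate 1 (0.0607). In all, 1 of the 7 genes of this list rose and 2 fell in each derived line, with medians of 0.00 and -0.15, beside 8.71% of all tested genes called higher and 16.3% lower in ESC + H/F-PRAMEL7WT and 6.25% and 13.6% in ESC + H/F-PRAMEL7ΔN. *Lif*, *Stat3*, *Socs3* and *Dnmt1* did not pass in either.

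**Figure D5:**
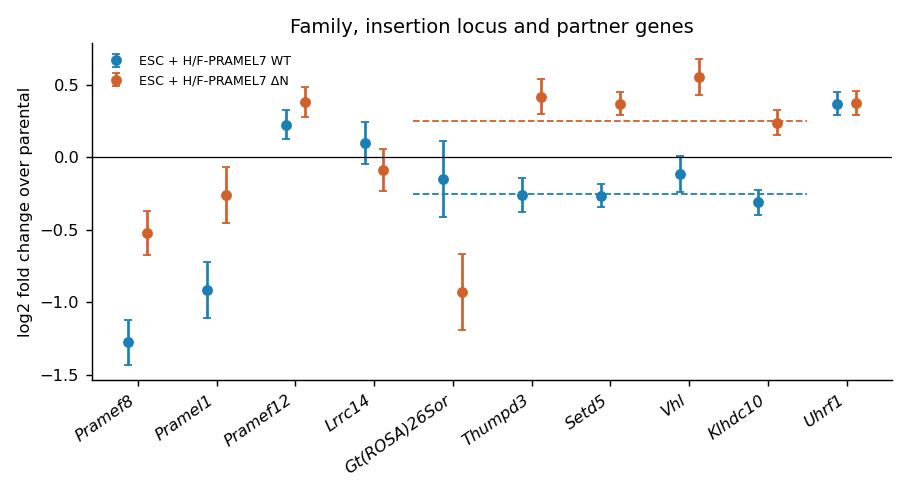
Difference from parental ESCs (log2 fold change, points, with bars of 1 SE) of family, insertion locus and partner genes in each derived line; dashed lines give the median over the 603 tested genes of chromosome 6 and span the genes that lie on it. *Pramef8* and *Pramel1* lay lowest in ESC + H/F-PRAMEL7WT, *Thumpd3*, *Setd5*, *Vhl* and *Klhdc10* lay on opposite sides of 0 in the derived lines, and *Uhrf1* was at 0.37 in both.

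Genes whose levels ran most like *Pramel7* over the 6 libraries were listed as a description, with Pearson's r of log2(CPM + 1). The 6 libraries come from only 3 lines, so such an r reflects mainly the order parental, PRAMEL7WT, PRAMEL7ΔN. Among the 5 highest were *Ap1m2*, which encodes a subunit of the epithelial AP-1 sorting adaptor (r = 0.998), *Rbms1*, an RNA-binding protein (0.996), *C130074G19Rik* (0.995) and *Nxn*, nucleoredoxin (0.994). These 4 rose much less than *Pramel7*. *Ap1m2*, for example, went from 38.5 and 38.2 CPM in parental ESCs to 57.4 and 56 CPM with PRAMEL7WT and 68.8 and 67.6 CPM with PRAMEL7ΔN. None of the 4 lies within the chromosomal neighbourhoods of the members.

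Genes of the 2-cell-like state, a rare state of cultured ESCs in which many early embryonic genes are switched on, stayed under the 1 CPM filter for all but 2 of the 21 listed. These were *Dppa2* and *Dppa4*; neither passed the test in ESC + H/F-PRAMEL7WT, and *Dppa4* rose by 0.32 ± 0.09 (log2, SE) in ESC + H/F-PRAMEL7ΔN (adjusted p = 0.0287 by limma). Of the 10 ESC markers, 1 rose and 3 fell in ESC + H/F-PRAMEL7WT, against 8.71% and 16.3% of all tested genes, and none passed in ESC + H/F-PRAMEL7ΔN, against 6.25% and 13.6%. Both tested fibroblast markers fell in ESC + H/F-PRAMEL7WT, by 1.08 ± 0.14 (log2, SE) for *Thy1* and 1.02 ± 0.22 for *Col1a1* (adjusted p = 0.00147 and 0.0110 by limma). Their parental reads were 1734 and 77, against 798 and 18 in that line, or ratios of 0.459 and 0.233. The part of cells of another type in the levels of *Pramef8* and *Pramel1*, which were lowest in the same libraries, was not tested. Of the primitive endoderm markers, 2 of 5 were tested. *Gata4* was at 0.69 ± 0.19 in ESC + H/F-PRAMEL7WT and 0.78 ± 0.19 in ESC + H/F-PRAMEL7ΔN (adjusted p = 0.0299 and 0.0216 by limma). *Pdgfra* was at -0.60 ± 0.18 and -0.66 ± 0.18 (0.0402 and 0.0319), on 42 parental reads against 15 and 13. Of the trophectoderm markers, 2 of 5 were tested, and neither passed in ESC + H/F-PRAMEL7WT. *Eomes* rose by 0.96 ± 0.17 in ESC + H/F-PRAMEL7ΔN (adjusted p = 0.00513 by limma), where 6.25% of all tested genes were called higher. *Krt7* was at -0.38 ± 0.25 in the same line (adjusted p = 0.329 by limma). The marker calls were not run under the alternative settings.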

How the data were processed

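The authors deposited 1 table of RPKM values. Per the study's methods, poly(A)-selected single-end reads were cleared of ribosomal reads with SortMeRNA, trimmed with Trimmomatic and mapped to mm10 with STAR. Exon coverage was then normalised, by the same account. The sample records also name Subread (version 1.4.6-p4) among the tools. With the whole gene span as the length, 98.1 to 98.4% of values of up to 20 reads came out within 0.1 of a whole read, against 40.1 to 41.9% with exon length. Of 50978 rows, 176 with repeated or date-like names were left out, and 47940 genes matched GENCODE vM21. Another 2 deposited tables of the authors' own fold changes and p-values were not used.

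Differences were tested with limma (version 3.58.1, R 4.3.3, with a mean-variance trend) on log2(CPM + 1), over 12914 genes above 1 CPM in at least 2 libraries, with all 6 libraries in 1 fit, no covariates and Benjamini-Hochberg adjustment; calls have an adjusted p below 0.05. The study's methods name DESeq2 and edgeR, which were not run here. An exact permutation test of 2 against 2 libraries cannot go below p = 0.333. Read ratios carry 95% Clopper-Pearson intervals. The script was tested on simulated data.

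Members and lists were chosen with earlier results of these data known. The genes named were the 4 members, family and insertion locus genes above the filter, genes of the CUL2 and upstream lists that were called plus *Cul2* and *Uhrf1*, and the 5 genes most correlated with *Pramel7*, of which 1 is not reported here; family genes under the filter, *Gm13102*, *Gm13127*, markers and chromosomes were named after their values were seen. Alternatives covered the value added, the filter, scaling, the variance model, the unit, voom on whole reads, the replicate block and the omission of each library. Proteins and ChIP samples were not analysed here.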

Additional observations from a re-analysis of the deposited data

How the results depend on the processing

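*Pramel7* kept its direction and its call in all 3 comparisons under the 16 alternatives run for each: 3.30 to 7.53 (log2) in ESC + H/F-PRAMEL7WT, 6.26 to 10.6 in ESC + H/F-PRAMEL7ΔN, and -3.14 to -2.96 between them. The spread of the first 2 came mainly from the value added before the logarithm, since the parental level was near 0. *Pramel6* was at -0.53, -0.62 and 0.10 in the 3 comparisons on the log2(CPM + 1) scale, and at -1.71, -2.33 and 0.61 by voom on whole reads with no filter, an alternative chosen after seeing the data, which adds less before the logarithm.

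The 3234, 2566 and 2628 genes called in the 3 comparisons became 444, 516 and 507 with no filter, where most genes had no reads; 1045, 1054 and 951 by voom with no filter; and 1763, 1590 and 1605 under a limit on fold change in place of the adjustment (p below 0.05, taken here as unadjusted, and a log2 fold change beyond 0.58). With only the 2 lines compared, 1700 genes were called for ESC + H/F-PRAMEL7ΔN and 4647 between the derived lines, and with RPKM as deposited 1621 between the derived lines; the cause was not tested. Leaving out 1 library gave 706 to 4374, 838 to 4282 and 712 to 1187 genes. Under median-ratio scaling, 1752 of the calls in ESC + H/F-PRAMEL7WT were higher and 1451 lower, against 1125 and 2109; in ESC + H/F-PRAMEL7ΔN, 1166 and 1336 against 807 and 1759.

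For the other named genes, 569 of 714 values kept direction and call, 124 lost the call, 12 gained one and 9 changed sign, all of them for values that were not called. Without 1 library, *Lrrc14* ran from -0.0598 to 0.258, *Gt(ROSA)26Sor* from -0.568 to 0.263, *Cul2* from -0.344 to 0.111 and *Vhl* from -0.272 to 0.0374 in ESC + H/F-PRAMEL7WT, *Cul2* from -0.183 to 0.272 in ESC + H/F-PRAMEL7ΔN, and *Uhrf1* from -0.0171 to 0.00807 between the derived lines (0.0104 under median-ratio scaling).

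The replicate numbers name separate dishes and nothing marks a shared batch; the deviations of same-numbered libraries correlated at 0.207, -0.249 and -0.103 between the lines. With a replicate block, 2729, 2112 and 2181 genes were called, *Pramel7* kept its calls, and *Setd5* in ESC + H/F-PRAMEL7WT (adjusted p = 0.0522) and *Pramef8*, *Gt(ROSA)26Sor*, *Thumpd3*, *Zyg11b* and *Lifr* in ESC + H/F-PRAMEL7ΔN (0.0570, 0.0579, 0.0649, 0.0645 and 0.0574) missed the threshold. At this depth, a member with no read may still have been present at up to about 0.16 CPM.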
